A study of Rattus norvegicus with 6 samples.

Results

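The Mmp7 nuclei were the ileal nuclei that carried the transcript of matrix metalloproteinase 7 without the wider gene signature of another crypt-base population. A nucleus was taken when it passed the quality filter (at least 1200 unique molecular identifiers, or UMIs, at least 500 genes and at most 5% mitochondrial UMIs), held 2 or more UMIs of Mmp7, and held UMIs of fewer than 3 different genes of Habp2, Gfra4, Kif19, Samd5, Cfap210, Pkhd1 and Defb51. The members were thus chosen by measured UMIs of Mmp7 and of the 7 exclusion genes. This rule gave 1635 nuclei of 40970 passing nuclei (3.99%), out of 90461 barcodes. Of the 2195 passing nuclei with 2 or more Mmp7 UMIs, 560 were left out because they held 3 or more of the 7 exclusion genes. Among the nuclei kept, 1061 held none of these genes, 384 held 1 and 190 held 2.

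The nuclei came from frozen ileum of wild-type male Sprague-Dawley rats, 6 weeks old, with 1 single-nucleus RNA library for each of 3 sham-operated rats (CON) and 3 rats with severe acute pancreatitis (SAP). Pancreatitis was produced by infusing 3% sodium taurocholate, 0.1 mL per 100 g of body weight, backwards into the pancreatic duct, which was clamped for 5 min. Sham rats had the abdomen opened without infusion, all rats were fasted with free access to water, and tissue was taken 24 h after surgery. Visible Peyer's patches were avoided or cut out, mesenteric fat was trimmed, and homogenized ileal tissue entered the nuclear preparation. The libraries held 9246, 6260 and 8414 passing nuclei in CON 1, 2 and 3, with 28771508, 11402966 and 19738010 UMIs. SAP 1, 2 and 3 held 3189, 5968 and 7893 passing nuclei, with 5549260, 15490877 and 19435288 UMIs. The tables of CON 2 and SAP 1 also listed barcodes with fewer than 1000 UMIs, so that 26.2% and 12.2% of their barcodes passed, against 76.4% to 79.9% in the other 4 libraries.

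Mmp7, also called matrilysin, is the protease that cuts the propeptide from alpha-defensins in the Paneth cells of mice, which sit at the base of the crypts of Lieberkühn between the stem cells. Paneth cells store alpha-defensins, lysozyme and secretory phospholipase A2 in zinc-rich granules and release them into the crypt lumen, and they send Wnt3 and other ligands to neighbouring stem cells. Zinc reaches the granules through the transporter Slc30a2, and metallothioneins bind zinc inside the cell.

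The share of Mmp7 nuclei was very uneven between rats. They made up 13.0%, 0.815% and 0.452% of passing nuclei in CON 1, 2 and 3 (1205, 51 and 38 nuclei), and 8.59%, 0.486% and 0.481% in SAP 1, 2 and 3 (274, 29 and 38 nuclei). CON 1 and SAP 1 together held 1479 of the 1635 nuclei (90.5%), so 1 library in each group stood far above the other 2 and the groups overlapped. The mean was 4.77% ± 7.16 in CON and 3.19% ± 4.68 in SAP (SD, n = 3), with an exact two-sided permutation p of 0.7, where 0.1 is the smallest value that 3 against 3 can give. In limma on logit shares, p was 0.845 without and 0.241 with the replicate number as a block. Without CON 1 and SAP 1, the mean shares were 0.633% and 0.484%. No difference in the share was detectable with these rats.

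Free Mmp7 RNA was also uneven between the libraries. Nuclei that should lack Mmp7 were taken as those with UMIs of at least 3 lymphocyte or smooth muscle genes after thinning to 1200 UMIs, a choice made after seeing the data. Among them, 8.55% in CON 1 and 8.51% in SAP 1 held 2 or more Mmp7 UMIs, against 2.25%, 0.478%, 0% and 0.626% in CON 2, CON 3, SAP 2 and SAP 3 (620, 141, 267, 1045, 74 and 2395 such nuclei in the order named). The value of 0% in SAP 2 rests on 74 nuclei and has an upper 95% Clopper-Pearson limit of 4.86%. Their median depth was 2099.5 UMIs in CON 1 and 1572 in SAP 1, against 3307 and 1675 in the Mmp7 nuclei. Of all passing nuclei, 16.0% in CON 1 and 1.58% in CON 3 held 2 or more Mmp7 UMIs, above the 95% Clopper-Pearson intervals of this background, which ran from 6.47% to 11.03% and from 0.156% to 1.11%. The shares of 2.76% in CON 2, 8.97% in SAP 1, 0.838% in SAP 2 and 0.938% in SAP 3 lay inside the intervals of their libraries. With every nucleus thinned to 1200 UMIs, CON 1 alone lay above its interval, at 6.84% against 1.73% to 4.55%. At the background rate of each library, 772 of the 1479 passing nuclei with 2 or more Mmp7 UMIs in CON 1 and 239 of the 286 in SAP 1 would be reached by free RNA, against 30.7 of 173, 14.6 of 133, 4.32 of 50 and 15.3 of 74 in CON 2, CON 3, SAP 2 and SAP 3. These intervals cover counting error only. For genes other than Mmp7, RNA in the lymphocyte and smooth muscle nuclei may be their own or free, and these were not told apart.

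**Figure D1:**
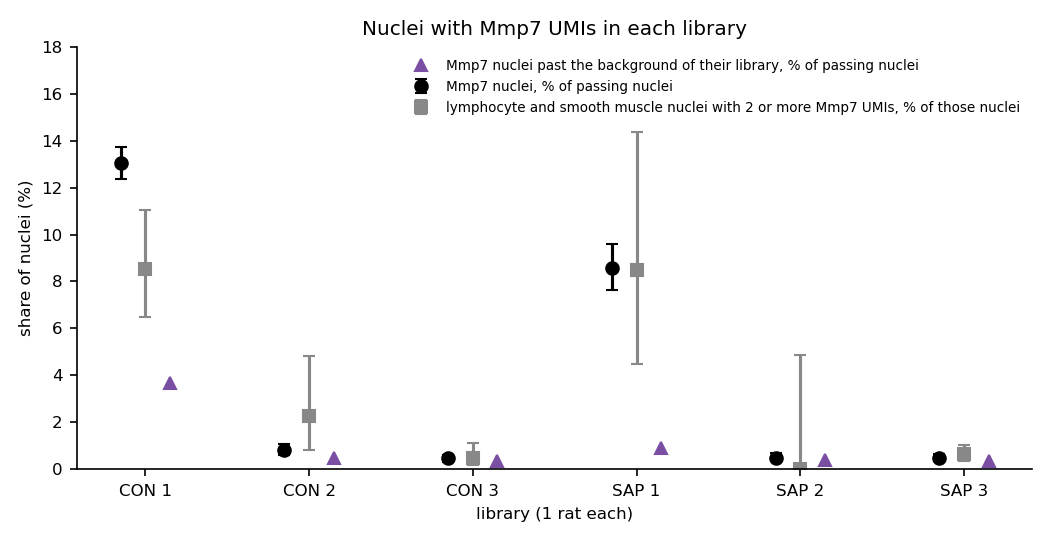
Share of nuclei in percent (vertical axis) in each of the 6 libraries (horizontal axis): Mmp7 nuclei among passing nuclei (circles), lymphocyte and smooth muscle nuclei with 2 or more Mmp7 UMIs (squares), both with 95% Clopper-Pearson intervals, and Mmp7 nuclei past the background of their library (triangles). In SAP 1 the circle at 8.59% and the square at 8.51% lie side by side, while the triangles range from 0.329% to 3.68%.

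The level of Mmp7 itself separated the nuclei from this background in every library. Summed over Mmp7 nuclei, Mmp7 reached 1088, 1654 and 895 counts per 1000000 UMIs (CPM) in CON 1, 2 and 3, and 1316, 646 and 668 CPM in SAP 1, 2 and 3. In lymphocyte and smooth muscle nuclei it was 151, 53.0 and 19.3 CPM in CON and 251, 11.1 and 19.1 CPM in SAP. The rule chose nuclei by Mmp7, so this gap is a description. Nuclei whose Mmp7 count had a Poisson tail under 0.001 at the background rate of their library and their own depth, called past the background below, numbered 340, 30 and 30 in CON and 29, 22 and 26 in SAP. They were 3.68%, 0.479% and 0.357% of passing nuclei in CON 1, 2 and 3 and 0.909%, 0.369% and 0.329% in SAP 1, 2 and 3 (exact two-sided permutation p = 0.6). SAP was lower in each of the 3 same-numbered pairs of rats, with an exact paired permutation p of 0.25, the smallest that 3 pairs can give. CON 1 remained the highest library, and the other 5 lay under 1%.

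The label of these nuclei as Paneth cells was checked against Mmp7, Habp2, Gfi1, Nupr1 and Defa24. Defa24, an alpha-defensin, made 70024, 24078 and 87159 CPM in CON and 45158, 18502 and 29697 CPM in SAP, against 13422, 1752 and 1865 CPM and 20809, 1359 and 1204 CPM in lymphocyte and smooth muscle nuclei of the same libraries. Nupr1, a stress-response gene, gave 213, 70.6 and 169 CPM in CON and 263, 163 and 120 CPM in SAP, against 52.1, 7.85 and 9.86 CPM and 137, 7.43 and 9.73 CPM. Both genes were higher in the Mmp7 nuclei than in the background of every library, with the smallest ratio in SAP 1. Habp2, which the rule limits, gave 43.6 to 141 CPM against 10.9 to 24.4 CPM. Gfi1, a zinc finger transcription factor of secretory cell fate, gave 13.6, 80.7 and 13.0 CPM in CON and 13.6, 21.3 and 32.6 CPM in SAP, against 37.1, 37.3 and 17.03 CPM and 3.80, 37.1 and 18.5 CPM. Gfi1 was thus below the background in CON 1, CON 3 and SAP 2, against its place as a marker of these nuclei. The Mmp7 nuclei of CON 3 and SAP 2 held 154247 and 140848 UMIs in all, so these levels rest on few Gfi1 UMIs. Gfi1 RNA in lymphocyte and smooth muscle nuclei may be their own, so this comparison does not settle the label. The nuclei are called by their rule rather than as Paneth cells.

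Alpha-defensins filled a large part of these nuclei. The 8 alpha-defensin genes in the tables and the alpha-defensin-like gene Defal1 together took 35.3%, 11.2% and 31.3% of all UMIs in the Mmp7 nuclei of CON and 22.9%, 7.36% and 12.1% in those of SAP (exact two-sided permutation p = 0.3). The share was again lower in SAP in each of the 3 same-numbered pairs (exact paired permutation p = 0.25). In nuclei past the background the shares were 61.6%, 12.9% and 37.8% in the CON rats and 41.1%, 15.9% and 18.7% in the SAP rats. In lymphocyte and smooth muscle nuclei they were 6.73%, 0.815% and 0.726% in the CON rats and 10.9%, 0.501% and 0.481% in the SAP rats. These nuclei thus held the largest defensin shares in CON 1 and SAP 1, and whether this RNA was free was not tested. The defensin genes share near-identical copies, and how reads were divided among them is uncertain.

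Markers of other cell types were compared with their sums in all other passing nuclei of the same library. All 8 goblet genes summed to 5590, 3611 and 2379 CPM in CON and 4649, 2662 and 3444 CPM in SAP, led by Fcgbp in each library, against 6006, 4999 and 5045 CPM and 5676, 3085 and 5199 CPM in the other nuclei, so they were lower in the Mmp7 nuclei of each library. The 7 stem cell genes summed to 1151, 1321 and 1945 CPM in CON and 1290, 1051 and 2857 CPM in SAP, with none at 0, against 1534, 1199 and 1120 CPM and 1114, 450.0 and 1006 CPM, and lay above the other nuclei in every library but CON 1. The 8 neuron and glia genes summed to at most 28.4 CPM, against 25.5 to 101 CPM in the other nuclei, and all 8 were at 0 in CON 2. Neutrophil genes stood apart in SAP 1, where they summed to 860 CPM, led by S100a9 at 485 CPM, against 1110 CPM in other nuclei of that library. No doublet caller was run. Instead, nuclei with markers of another class were left out as an alternative. They made up 33.1%, 9.80% and 50% of the Mmp7 nuclei in CON and 42.3%, 62.1% and 50% in SAP. Among all passing nuclei they were 31.7%, 18.6% and 57.6% in CON and 46.2%, 80.4% and 64.1% in SAP. This left 806, 46 and 19 Mmp7 nuclei in CON and 158, 11 and 19 in SAP. For SAP against CON, 1 of 1274 genes was then called.

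Around the Mmp7 threshold the contrast in Defa24 differed between libraries. Nuclei just inside, with exactly 2 Mmp7 UMIs, gave 23260, 22993 and 30883 CPM of Defa24 in CON and 30708, 10221 and 15260 CPM in SAP. Nuclei just outside, with 1 Mmp7 UMI, gave 17272, 4492 and 5713 CPM in CON and 21336, 3475 and 4947 CPM in SAP. The step was small in CON 1 and SAP 1 and larger in the other 4 libraries. At the second threshold, nuclei with 2 exclusion genes gave 101352, 16945 and 113195 CPM of Defa24 in CON and 84000, 9047 and 22837 CPM in SAP. Nuclei with 2 or more Mmp7 UMIs and exactly 3 exclusion genes gave 108969, 13924 and 10612 CPM in CON and 43131, 40806 and 51866 CPM in SAP, so this edge had no constant direction.

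The Mmp7 nuclei were compared with 3 other kinds of nuclei within the same libraries: nuclei with UMIs of 3 or more of 8 goblet genes, nuclei with 2 or more UMIs of the stem cell gene Olfm4 and no cycling gene, and crypt-base nuclei, which carried 3 or more of the 7 exclusion genes. They numbered 24666, 806 and 1218. The goblet rule took most of the passing nuclei, so these are named by the rule and not as goblet cells. UMIs were summed per library and kind and tested with edgeR's quasi-likelihood test with the library as a block. A call needed a Benjamini-Hochberg adjusted p below 0.05 together with a log2 difference of 0.5 or more in either direction. Genes of the rules were left out, and in these paragraphs CPM values are scaled by the trimmed mean of M values within the fit of both kinds, unless they describe Mmp7 or Defa24 in crypt-base nuclei, which are plain.

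Against nuclei of the goblet rule, Lyz2, RatNP-3b, Pla2g2a, Slc30a2, Slc39a10 and Wnt3 were among the genes called higher in the Mmp7 nuclei. Of 17116 genes tested, 1014 were called (5.92%), 647 higher (3.78%) and 367 lower (2.14%). With DESeq2 size factors in edgeR the split was 819 higher and 132 lower, and without CON 1 and SAP 1 it was 325 higher and 740 lower of 1065 called. Lyz2, lysozyme, had a mean of 4102 ± 3777 CPM (SD, n = 6 libraries) against 736 ± 1295 CPM, with a log2 fold change of 3.65 ± 0.61 (SE; adjusted p = 0.0327). RatNP-3b, another alpha-defensin, had a log2 fold change of 3.97 ± 0.75 (adjusted p = 0.0488). Pla2g2a, the secretory phospholipase A2 that cleaves bacterial membranes, had 9423 ± 9117 CPM against 1381 ± 1913 CPM and a log2 fold change of 3.38 ± 0.61 (adjusted p = 0.0413).

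The zinc transporter Slc30a2 had a smaller error. It was at 242, 280 and 155 CPM in Mmp7 nuclei of CON 1, 2 and 3 and at 108, 27.8 and 40.0 CPM in those of SAP 1, 2 and 3, against 30.0, 7.69 and 6.02 CPM and 22.0, 5.18 and 3.75 CPM in nuclei of the goblet rule. The Mmp7 nuclei were higher in each of the 6 libraries (log2 fold change 3.46 ± 0.22, adjusted p = 8.63e-31). Slc39a10, an importer of zinc across the plasma membrane, had 710 ± 521 CPM against 81.9 ± 65.4 CPM (3.06 ± 0.51, adjusted p = 0.0335). Wnt3, the ligand that sustains neighbouring stem cells, had 111 ± 37.5 CPM against 12.9 ± 8.72 CPM (3.05 ± 0.21, adjusted p = 2.88e-44). The calls for Lyz2, RatNP-3b, Pla2g2a and Slc39a10 were each lost without CON 1, CON 2, SAP 2 or SAP 3, with adjusted p up to 0.117, 0.154, 0.133 and 0.114 in that order and a fold of the same sign, and those for RatNP-3b and Pla2g2a also with every gene of at least 1 count. Slc30a2 and Wnt3 kept their calls in all 13 alternatives. Plg, plasminogen, was higher by 3.12 ± 0.21 on the log2 scale (adjusted p = 3.98e-45), and Fxyd3, a regulator of the sodium pump, by 1.93 ± 0.19. Fn1, fibronectin, was higher by 1.91 ± 0.18 and Piezo1, a mechanosensitive channel, by 1.85 ± 0.19. The lower genes named here had smaller folds. Ly6al had a log2 fold change of -0.74 ± 0.15. Apoa4, an apolipoprotein of villus enterocytes, was lower by the main rule (-1.23 ± 0.18), but against the 3364 nuclei with 6 or more goblet genes the sign turned to 0.15.

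Against Olfm4 nuclei, Defa24, Lyz2, Slc30a2, Mt1 and Mt2A were among the genes called higher in the Mmp7 nuclei. Of 6041 genes tested, 755 were called (12.5%), 498 higher (8.24%) and 257 lower (4.25%), and without CON 1 and SAP 1 the calls fell to 198, of which 162 were higher. Defa24 had 64736 ± 46817 CPM against 9271 ± 10251 CPM (SD, n = 6 libraries), with a log2 fold change of 3.31 ± 0.72 (adjusted p = 0.00458). Defa6 (3.38 ± 0.64), Defa8 (3.47 ± 0.72), RatNP-3b (3.57 ± 0.61) and Lyz2 (3.01 ± 0.49) were also higher in all 6 libraries. With every gene of at least 1 count, the calls for Defa24, Defa6, Defa8 and RatNP-3b were lost, with folds of 3.30 to 3.54. Slc30a2 had 172 ± 126 CPM against 11.7 ± 13.0 CPM (3.63 ± 0.48, adjusted p = 0.000582). The metallothioneins Mt1 (3.09 ± 0.43, adjusted p = 0.00102) and Mt2A (3.22 ± 0.49, adjusted p = 0.000551) bind zinc and copper in the cytosol and nucleus. Among the lower calls, Timeless, a replication fork protein, had 58.1 ± 18.4 CPM against 166 ± 46.4 CPM (-1.30 ± 0.22, adjusted p = 0.000692), and Ctps1, the synthase of cytidine triphosphate, had a log2 fold change of -1.25 ± 0.27. Cachd1, a membrane protein, had -1.26 ± 0.21.

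Crypt-base nuclei held Mmp7 themselves, at 1367, 871 and 431 CPM in CON and 778, 482 and 468 CPM in SAP, and Defa24 at 95256, 12262 and 29287 CPM in CON and 35157, 28281 and 25092 CPM in SAP. Of 9454 genes tested against them, 506 were called (5.35%), 185 higher (1.96%) and 321 lower (3.4%) in Mmp7 nuclei, and without CON 1 and SAP 1 the counts were 149 and 112. With every nucleus thinned to 1200 UMIs, 683 of 3941 genes were called. The rule capped the 7 exclusion genes in the Mmp7 nuclei, and how far the lower genes go with them was not tested. Gpr158, an orphan receptor, had 29.2 ± 18.1 CPM in Mmp7 nuclei against 145 ± 53.8 CPM (-2.41 ± 0.22, adjusted p = 8.89e-11). Myo16 (-2.31 ± 0.25), the glutamate receptor subunit Grik4 (-2.09 ± 0.23), Scube1 (-1.92 ± 0.32) and Naaladl2 (-1.68 ± 0.20) were lower in all 6 libraries. On the higher side, Ccl25, a chemokine of the small intestinal epithelium, had 186, 60.4 and 98.8 CPM in CON and 190, 142 and 81.5 CPM in SAP, against 71.8, 28.5 and 48.6 CPM and 55.4, 117 and 35.9 CPM (1.11 ± 0.20, adjusted p = 0.000185). The peptidases Dpp4 (0.98 ± 0.18) and Dpep1 (0.98 ± 0.23), the bile acid binding protein Fabp6 (0.91 ± 0.20), and the selenium carrier Selenop (1.27 ± 0.22) were higher too, as were the mitochondrial transcripts ND4 (0.97 ± 0.26) and ND5 (0.97 ± 0.19). Without CON 1 and SAP 1 the calls for Ccl25 (0.83, adjusted p = 0.0861), Dpp4 (0.73, 0.0721), Dpep1 (0.44, 0.402), Fabp6 (0.66, 0.0888) and Selenop (0.78, 0.107) were lost, while ND4 gave 1.40 (adjusted p = 0.00778) and ND5 gave 1.33 (adjusted p = 0.000294). The call for ND4, with a main adjusted p of 0.0490, was lost without CON 2, CON 3, SAP 1 or SAP 3 (adjusted p up to 0.206) and with DESeq2 size factors in edgeR, and that for ND5 in none of 12 alternatives. The call for Dpep1 was also lost without CON 1, that for Fabp6 without SAP 1 and with at least 3 Mmp7 UMIs, and that for Selenop with at least 3 Mmp7 UMIs.

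**Figure D2:**
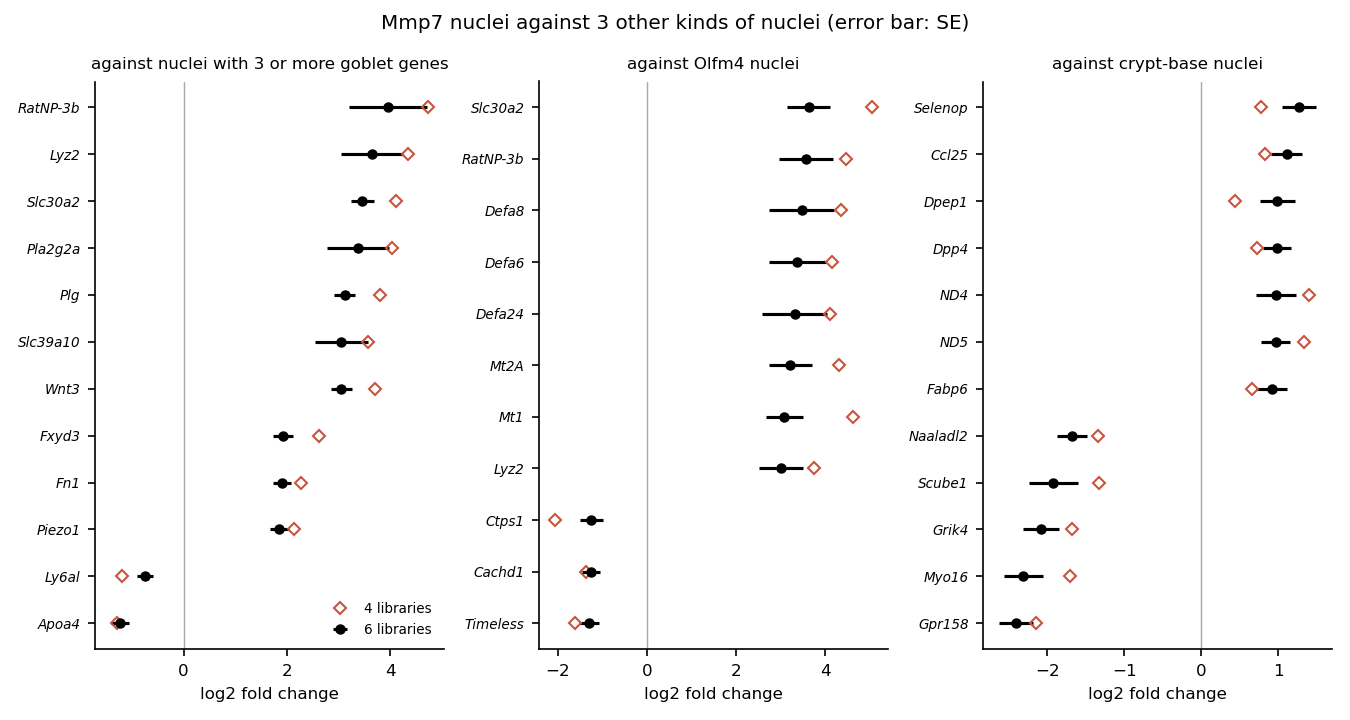
Log2 fold change (horizontal axis) of the named genes (vertical axis) in Mmp7 nuclei against nuclei with 3 or more goblet genes, Olfm4 nuclei and crypt-base nuclei, with all 6 libraries (filled circles, error bar SE) and with CON 1 and SAP 1 left out (open diamonds). The highest genes lie above 3 on the log2 scale against the first 2 kinds and at most at 1.27 against crypt-base nuclei.

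The response to pancreatitis was then tested within the Mmp7 nuclei, with UMIs summed per rat. The sums were 6170995, 99138 and 154247 UMIs in CON 1, 2 and 3 and 589825, 140848 and 184096 UMIs in SAP 1, 2 and 3, so 4 of the 6 sums came from 29 to 51 nuclei. Mitochondrial UMIs took a median of 0.616%, 0.129% and 0.398% per Mmp7 nucleus in the CON rats, against 2.08%, 0.997% and 0.783% in the SAP rats, so this sign of RNA quality separated the groups without overlap. With nuclei of at most 1% mitochondrial UMIs alone, edgeR called 0 of 2162 genes, and 77 had an unadjusted p under 0.05. In that fit Slc39a10 had a log2 fold change of -2.11, Slc30a2 of -2.60, Pla2g2a of -2.23 and Fkbp5 of 1.46. Apoa1 moved to 0.90 from 2.37 in all Mmp7 nuclei, RT1-Ba to 0.73 from 1.36, Slc39a4 to 1.55 from 2.34 and Itln1 to 4.41 from 2.65, so the size of these folds depended on this filter. St8sia6, Mt1 and RT1-Db1 were not among the genes tested in it. Levels below are CPM after scaling by the trimmed mean of M values (TMM CPM). Of 3611 genes tested with edgeR's quasi-likelihood test, 1 was called (0.0277%), and 209 had an unadjusted p under 0.05 (5.79%). The groups did not overlap for 398 genes (11%), with all SAP rats above all CON rats for 207 (5.73%) and below for 191 (5.29%). With the replicate number as a block, 33 of 4485 genes were called (0.736%), 22 higher and 11 lower in SAP. DESeq2 called 24, of which 16 were among these 33. With library totals alone in place of TMM, 32 were called, 23 higher and 9 lower, and the median of all genes moved from 0.01 to 0.26 on the log2 scale. Most medians of gene lists below are therefore given also relative to that of all genes. Without CON 1 and SAP 1 no gene was called by edgeR, and 118 had an unadjusted p under 0.05.

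The gene called was St8sia6, a sialyltransferase that adds sialic acid to the sugars of glycoproteins. It was at 241, 166 and 111 TMM CPM in CON 1, 2 and 3 (893, 16 and 12 UMIs) and at 11.8, 7.55 and 0 TMM CPM in SAP 1, 2 and 3 (5, 1 and 0 UMIs). The groups were far apart, with a log2 fold change of -4.50 ± 0.57 (SE; adjusted p = 0.0439; with the replicate block, 0.000415). Leaving out 1 rat at a time gave adjusted p of 0.0519 to 0.361 for 5 of the 6 rats and 0.0300 without SAP 3, and the fold stayed between -5.68 and -4.00. The fall was not confined to the Mmp7 nuclei. In lymphocyte and smooth muscle nuclei St8sia6 had 182, 296 and 225 plain CPM in the CON rats and 38.0, 7.43 and 23.8 plain CPM in the SAP rats. The plain values of the Mmp7 nuclei were 145, 161 and 77.8 CPM in the CON rats and 8.48, 7.10 and 0 CPM in the SAP rats, below this background in all 6 libraries. The same fit gave -3.93 in crypt-base nuclei and -5.27 over all passing nuclei.

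Of the zinc genes named here, the metallothionein Mt1 had the largest fold. Mt1 was at 205, 602 and 557 TMM CPM in CON 1, 2 and 3 (757, 58 and 60 UMIs) and at 52.0, 7.55 and 18.6 TMM CPM in SAP 1, 2 and 3 (22, 1 and 3 UMIs). The log2 fold change was -3.75 ± 0.60 (adjusted p = 0.0694), and with the replicate block Mt1 fell by 3.42 on the log2 scale (adjusted p = 0.0208). In the nuclei past the background Mt1 had 203, 784 and 566 plain CPM in the CON rats and 0, 17.9 and 0 plain CPM in the SAP rats. In lymphocyte and smooth muscle nuclei the order was the other way, with 35.7, 25.5 and 30.0 CPM in CON and 152, 156 and 39.8 CPM in SAP, so Mt1 in this background was higher, not lower, in each SAP rat. The same fit gave -3.45 in crypt-base nuclei and -0.75 over all passing nuclei.

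The zinc transporters Slc39a10 and Slc30a2 lay on the same side as Mt1. Slc39a10, which is not on the zinc list, was at 1347, 1246 and 1625 TMM CPM in CON and 378, 128 and 385 TMM CPM in SAP, without overlap, with a log2 fold change of -2.23 ± 0.53 (adjusted p = 0.417) and a fall of 2.31 with the replicate block (adjusted p = 0.00771). Slc30a2 was at 257, 343 and 204 TMM CPM in CON and 118, 30.2 and 55.9 TMM CPM in SAP, also without overlap (-1.80 ± 0.42, adjusted p = 0.417; -1.78 with the block, adjusted p = 0.0489). Slc39a4, the zinc importer of the apical membrane of enterocytes, stood on the other side, at 89.8, 0 and 83.6 TMM CPM in CON and 496, 393 and 149 TMM CPM in SAP (2.34 ± 0.62, adjusted p = 0.417; 0.0692 with the block). In lymphocyte and smooth muscle nuclei Slc39a4 was at 28.7, 17.7 and 121 plain CPM in CON and 296, 394 and 204 plain CPM in SAP, against 53.8, 0 and 58.3 and then 356, 369 and 130 plain CPM in the Mmp7 nuclei, so the groups stood apart in the background too. Slc39a10 was at 207, 96.2 and 97.2 plain CPM in CON and 137, 52.0 and 72.0 plain CPM in SAP in that background, and Slc30a2 at 35.2, 13.7 and 10.8 and then 22.8, 0 and 7.86 plain CPM. Both were higher in the Mmp7 nuclei than in the background of each library. Mmp7 nuclei with 10 or more Mmp7 UMIs numbered 180, 1 and 2 in CON and 4, 1 and 1 in SAP. Among them Slc30a2 was at 242, 0 and 265 plain CPM in CON and 274, 381 and 203 plain CPM in SAP. Slc39a10 was at 1369, 1019 and 2616 and then 594, 0 and 1221 plain CPM in them. How far background nuclei among the members enter these folds was not tested. Of the 12 zinc and metallothionein genes 6 could be tested, 2 above and 4 below 0, with a median of -0.64 beside 0.01 over all genes. Relative to all genes the median was -0.65, and -0.81 with library totals, while with the replicate block the median of 7 was -0.08. Without CON 1 and SAP 1 the list's median was -1.42, with 1 of 6 above 0.

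The promoters of Mt1, Mt2A and Slc30a2 are shown because zinc switches on metallothionein genes through the sensor Mtf1, which binds metal response elements, whose core was searched as TGCACNC or TGCGCNC on both strands of the 250 bases before each start. The sequences are from RefSeq on the rat build GRCr8, matched by symbol, with matches in capitals. Mt1 (minus strand, chr19:10832976-10833225) held 6 matches, Mt2A (minus strand, chr19:10838709-10838958) held 4 and Slc30a2 (plus strand, chr5:151843201-151843450) held 2.
Mt1: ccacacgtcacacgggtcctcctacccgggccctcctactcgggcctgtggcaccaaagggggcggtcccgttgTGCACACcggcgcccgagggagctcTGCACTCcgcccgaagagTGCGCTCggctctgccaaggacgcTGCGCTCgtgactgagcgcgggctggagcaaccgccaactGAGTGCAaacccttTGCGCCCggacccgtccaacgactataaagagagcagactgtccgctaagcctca
Mt2A: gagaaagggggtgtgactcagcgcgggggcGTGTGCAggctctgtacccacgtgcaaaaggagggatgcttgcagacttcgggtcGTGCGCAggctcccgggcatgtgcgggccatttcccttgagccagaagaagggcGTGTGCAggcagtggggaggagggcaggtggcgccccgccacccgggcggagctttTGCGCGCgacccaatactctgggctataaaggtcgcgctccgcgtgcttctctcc
Slc30a2: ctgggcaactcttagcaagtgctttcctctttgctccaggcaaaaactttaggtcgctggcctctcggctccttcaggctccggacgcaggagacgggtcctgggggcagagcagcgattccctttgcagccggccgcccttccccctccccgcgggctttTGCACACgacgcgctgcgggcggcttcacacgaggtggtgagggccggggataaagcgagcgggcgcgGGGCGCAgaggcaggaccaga
Of 33469 rat promoters of the same length, 20.6% held at least 1 match, 4.90% at least 2, 0.266% at least 4 and 0.0747% at least 5. The second annotated start of Slc30a2, and the promoters of Slc39a10 and Pla2g2a, held none, while that of St8sia6 held 2. A match describes letters only and does not show that Mtf1 binds there. Defa24, Defa6, Defa8 and Slc39a4 were not among the promoters used here.

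The promoter of Mmp7, the gene that defines these nuclei, was searched for the letters CTTTGAT or CTTTGAA of the Wnt effectors TCF and LEF, since Mmp7 is a Wnt target in intestinal tumours. It lies on the plus strand at chr8:13132793-13133042 of GRCr8 and held 1 match, ATCAAAG on the strand shown, 13 bases before the start.
Mmp7: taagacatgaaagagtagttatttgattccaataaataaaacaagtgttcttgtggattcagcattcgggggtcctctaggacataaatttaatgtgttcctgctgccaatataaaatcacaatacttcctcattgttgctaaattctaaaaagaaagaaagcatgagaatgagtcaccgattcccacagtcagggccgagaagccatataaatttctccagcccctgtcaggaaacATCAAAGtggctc
Of the 33469 promoters, 7.58% held at least 1 such match.

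**Figure D3:**
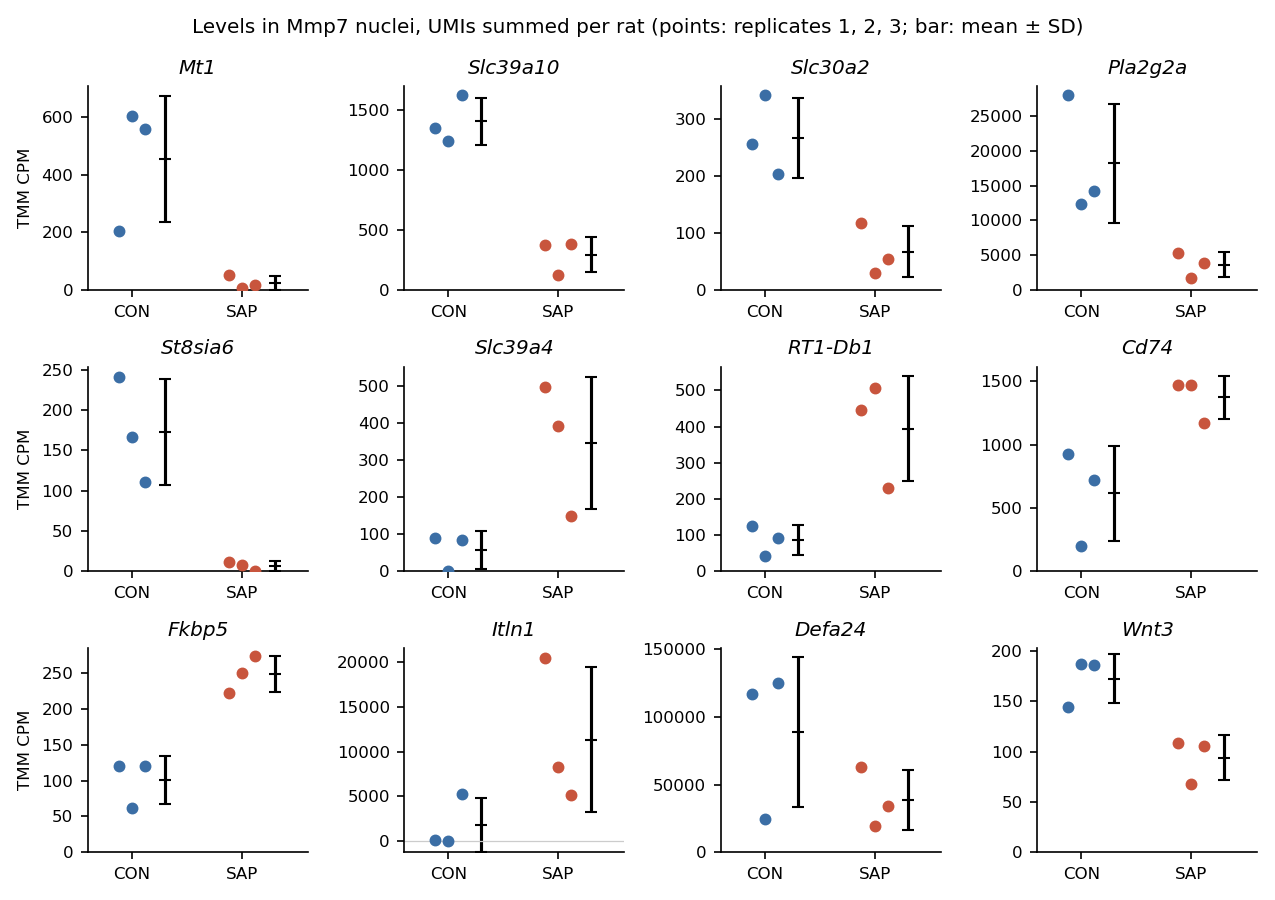
TMM CPM (vertical axes, linear) of 12 genes in Mmp7 nuclei of the 3 CON and 3 SAP rats (points), with the mean ± SD beside them. St8sia6, Mt1, Slc39a10, Slc30a2, Pla2g2a and Wnt3 were lower in all 3 SAP rats, Slc39a4, RT1-Db1, Cd74 and Fkbp5 were higher in all 3, and Itln1 and Defa24 overlapped.

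The secreted antimicrobials did not move as 1 group. Pla2g2a was at 27929, 12332 and 14194 TMM CPM in CON and 5339, 1798 and 3895 TMM CPM in SAP, without overlap (-2.30 ± 0.85, adjusted p = 0.659), and fell by 2.34 with the replicate block (adjusted p = 0.0464). In lymphocyte and smooth muscle nuclei Pla2g2a was at 3549, 844 and 354 CPM in CON and 1421, 156 and 232 CPM in SAP, with overlap, and the same fits gave -2.36 in crypt-base nuclei and -2.57 over all nuclei. Defa24 was at 116817, 24778 and 124808 TMM CPM in CON and 62947, 19686 and 33964 TMM CPM in SAP, and CON 2 lay among the SAP rats (-1.19 ± 1.06, adjusted p = 0.979). All 5 alpha-defensins tested of 8 had folds below 0, with a median of -1.19 (relative to all genes -1.20, and -1.17 with library totals), and none of the 5 had an unadjusted p under 0.05. They stayed below 0 with DESeq2 size factors and with library totals. Their RNA in lymphocyte and smooth muscle nuclei varied between libraries as described above, and the part of free RNA in these folds was not tested.

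Itln1, intelectin 1, which binds sugars of microbial cell walls, varied widely between rats. It was at 102, 51.9 and 5301 TMM CPM in CON and 20476, 8302 and 5163 TMM CPM in SAP, and CON 3 lay above SAP 3 (2.65 ± 1.51, adjusted p = 0.936). The fold was 5.59 with the replicate block (adjusted p = 0.399) and 1.33 without CON 1 and SAP 1. In nuclei past the background, Itln1 was at 35.1, 17.8 and 1258 CPM in CON and 28922, 16996 and 7277 CPM in SAP, with no overlap. Itln1 was detected in 8.87%, 4.87% and 25.0% of lymphocyte and smooth muscle nuclei in CON and 100%, 64.9% and 23.3% in SAP. In all Mmp7 nuclei these shares were 17.2%, 5.88% and 50% in CON and 100%, 96.6% and 81.6% in SAP. The part of free RNA in the Itln1 folds was not tested. The same fit gave 5.05 in crypt-base nuclei. Over the 17 non-defensin antimicrobials, 9 could be tested, 3 of them above 0, with a median of -0.24. Relative to all genes the median was -0.25 under both scalings.

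No tested gene of the stem cell niche or Wnt target lists passed the adjusted threshold. Lef1, a transcription factor of the Wnt pathway, had a log2 fold change of -1.54 ± 0.71 with overlap (adjusted p = 0.879). Wnt3 was at 144, 187 and 186 TMM CPM in CON and 109, 68.0 and 106 TMM CPM in SAP, without overlap (-0.79 ± 0.31, adjusted p = 0.729). Among Mmp7 nuclei with 10 or more Mmp7 UMIs (180, 1 and 2 in CON, 4, 1 and 1 in SAP), Wnt3 overlapped between groups. There it was at 140, 340 and 66.2 plain CPM in CON and 320, 762 and 0 plain CPM in SAP. Rgmb, a co-receptor of bone morphogenetic proteins, was at 161, 280 and 186 TMM CPM in CON and 99.3, 83.1 and 137 TMM CPM in SAP (-0.91 ± 0.34, adjusted p = 0.659). All 11 Wnt targets tested of 17 lay below 0 with a median of -0.26, while with library totals, which raise all genes, 5 of the 11 were above 0. Relative to all genes the median was -0.26, and -0.33 with library totals. Cycling markers lay on the same side: all 3 tested of 6 had folds below 0 with a median of -1.17 (-0.96 relative to all genes with library totals), and none of them passed the adjusted threshold. Over the 6 cycling genes the sums were 381, 414 and 279 CPM in the CON rats and 171, 121 and 456 CPM in the SAP rats, led by Top2a or Mki67, with Pcna and Mcm6 at 0 in CON 2 and Pcna at 0 in CON 3. All 6 goblet markers tested of 8 also had folds below 0, with a median of -0.25, while with library totals 2 of the 6 were above 0. Without CON 1 and SAP 1, 3 of the 6 goblet markers were above 0, with a median of -0.12. The part of these cells in the Wnt target values was not tested. Of 23 niche ligands and receptors 9 were tested, 3 above 0, with a median of -0.18 (relative to all genes -0.18, and -0.10 with library totals). Without CON 1 and SAP 1, 5 of the 9 were above 0 with a median of 0.01. DESeq2 over all 23 gave a median of -0.43. Of 15 transcription factors of Paneth and other secretory cells 10 were tested, 1 above 0, with a median of -0.20 (relative to all genes -0.21, and -0.27 with library totals). Lgr4, Lrp5 and Lrp6 overlapped between groups, as did Tcf7l2, Nr5a2, Cdx2 and Ets2. Gfi1, Atoh1, Bhlha15, Foxa1 and Foxa2 were too low to be tested.

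The secretory machinery was divided. Of 17 granule and secretion genes 9 were tested, 6 below 0 with a median of -0.48 (relative to all genes -0.49 under both scalings). All 3 with an unadjusted p under 0.05 were lower in SAP, beside 5.79% of all genes tested in either direction. They were Slc30a2 and the granule tethers Rab27b (147, 197 and 158 TMM CPM in CON, 85.1, 68.0 and 80.8 TMM CPM in SAP, -1.04 ± 0.30, adjusted p = 0.468) and Rab27a (88.1, 125 and 121 TMM CPM in CON, 66.2, 68.0 and 49.7 TMM CPM in SAP, -0.74 ± 0.32, adjusted p = 0.835). Neither Rab27 gene overlapped between groups, and neither passed the adjusted threshold. Of the 9 genes, 5 lay lower and 1 higher in SAP without overlap, beside 5.29% and 5.73% of all genes tested. The list of the endoplasmic reticulum and unfolded protein response had 10 of 20 tested genes above 0 and a median of 0.01 (with library totals, -0.03 relative to all genes). Hspa5, the chaperone BiP, was at 674, 270 and 344 TMM CPM in CON and 714, 219 and 565 TMM CPM in SAP, with overlap. Of the 20 genes, 3 did not overlap between groups, beside 11% of all genes tested. Sec61b, a subunit of the translocon and the gene of this list with an unadjusted p under 0.05, was at 151, 93.4 and 260 TMM CPM in CON and 85.1, 52.9 and 80.8 TMM CPM in SAP (-1.14 ± 0.39, adjusted p = 0.615). The other two, named after their values were seen, were the transcription factors Xbp1 (-0.48 ± 0.28, adjusted p = 0.937) and Atf6 (0.32 ± 0.27, adjusted p = 0.979). Of 18 genes of autophagy, Nod2 and cell death 7 were tested, 2 above 0 (with the replicate block, 4 of 8), and none had an unadjusted p under 0.05. With DESeq2 over all 18, 10 were above 0, with a median of 0.21.

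Antigen presentation genes of class II lay on the higher side in SAP. All 6 tested of 12 had folds above 0 with a median of 0.98 (relative to all genes 0.98, and 1.09 with library totals). In 3 of the 6 all SAP rats lay above all CON rats, beside 5.73% of all genes tested. RT1-Db1, a class II beta chain, was at 125, 41.5 and 92.8 TMM CPM in CON and 447, 506 and 230 TMM CPM in SAP (2.03 ± 0.41, adjusted p = 0.262), and rose by 2.06 with the replicate block (adjusted p = 0.0127). Cd74, the invariant chain, was at 924, 197 and 724 TMM CPM in CON and 1472, 1473 and 1174 TMM CPM in SAP (1.14 ± 0.59, adjusted p = 0.879), and RT1-Ba gave 1.36 ± 0.46 (adjusted p = 0.601). Lymphocyte and smooth muscle nuclei showed the same order, with RT1-Db1 at 80.8, 54.9 and 172 plain CPM in CON and 289, 535 and 301 plain CPM in SAP, and Cd74 at 469, 312 and 615 plain CPM in CON and 1109, 1467 and 971 plain CPM in SAP. In the Mmp7 nuclei the plain values were 74.7, 40.3 and 64.8 and then 320, 476 and 201 CPM for RT1-Db1, below the background in 5 of the 6 libraries. The B cell gene Pax5 was detected in 4.68% (CON 1) to 50.9% (SAP 3) of these background nuclei. How much class II RNA they make themselves was not tested, so this order does not give the free part. Over all passing nuclei the fits gave 2.27 for RT1-Db1 and 1.33 for Cd74. The RT1 genes share near-identical copies.

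Enterocyte markers lay on the same side. Of the 9 enterocyte markers, 7 were tested and all 7 had folds above 0, with a median of 0.55 (relative to all genes 0.54, and 0.68 with library totals). Without CON 1 and SAP 1 all 7 markers were again above 0, with a median of 1.36. Summed over the list, they were at 1445, 464 and 1115 CPM in the Mmp7 nuclei of CON and 2104, 3096 and 1146 CPM in those of SAP, led by Enpep in 5 libraries and by Fabp2 in SAP 3, with 2 markers at 0 in CON 2 and 1 in SAP 2. Apoa1, an apolipoprotein of enterocytes, was at 721, 51.9 and 743 TMM CPM in CON and 4930, 2274 and 739 TMM CPM in SAP (2.37 ± 0.97, adjusted p = 0.753). Macrophage markers summed to 123, 262 and 64.8 CPM in CON and 83.1, 121 and 141 CPM in SAP, and B cell markers to 29.2, 60.5 and 84.3 CPM and 49.2, 35.5 and 478 CPM. B cell markers were thus high in SAP 3 alone. The part of these cells in the class II, Slc39a4 and Apoa1 values was not tested.

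The interferon and NF-kB genes that could be tested had medians near 0. Of 22 genes of class I processing and interferon 8 were tested, 2 above 0 (median -0.11; relative to all genes -0.11, and -0.13 with library totals). Of 15 NF-kB genes 3 were tested, with a median of 0.01 (with library totals, 0.07 relative to all genes). DESeq2, which also fitted genes of lower counts, gave 11 of the 15 above 0 with a median of 0.36, or 0.40 relative to all genes. For the 22 genes of class I processing and interferon it gave 12 above 0 with a median of 0.02. Glucocorticoid and fasting genes had 3 of 4 tested above 0 and a median of 0.68 (relative to all genes 0.67, and 0.71 with library totals). Fkbp5, a glucocorticoid-induced co-chaperone, was at 120, 62.3 and 121 TMM CPM in CON and 222, 249 and 273 TMM CPM in SAP (1.21 ± 0.30, adjusted p = 0.417), and Txnip gave 0.87 ± 0.39 with overlap. Lymphocyte and smooth muscle nuclei held Fkbp5 at 154, 80.5 and 159 plain CPM in CON and 258, 290 and 331 plain CPM in SAP, also without overlap, and above the 71.8, 60.5 and 84.3 and then 159, 234 and 239 plain CPM of the Mmp7 nuclei in each library. Food was withheld in both groups, and fasting itself was not compared.

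**Figure D4:**
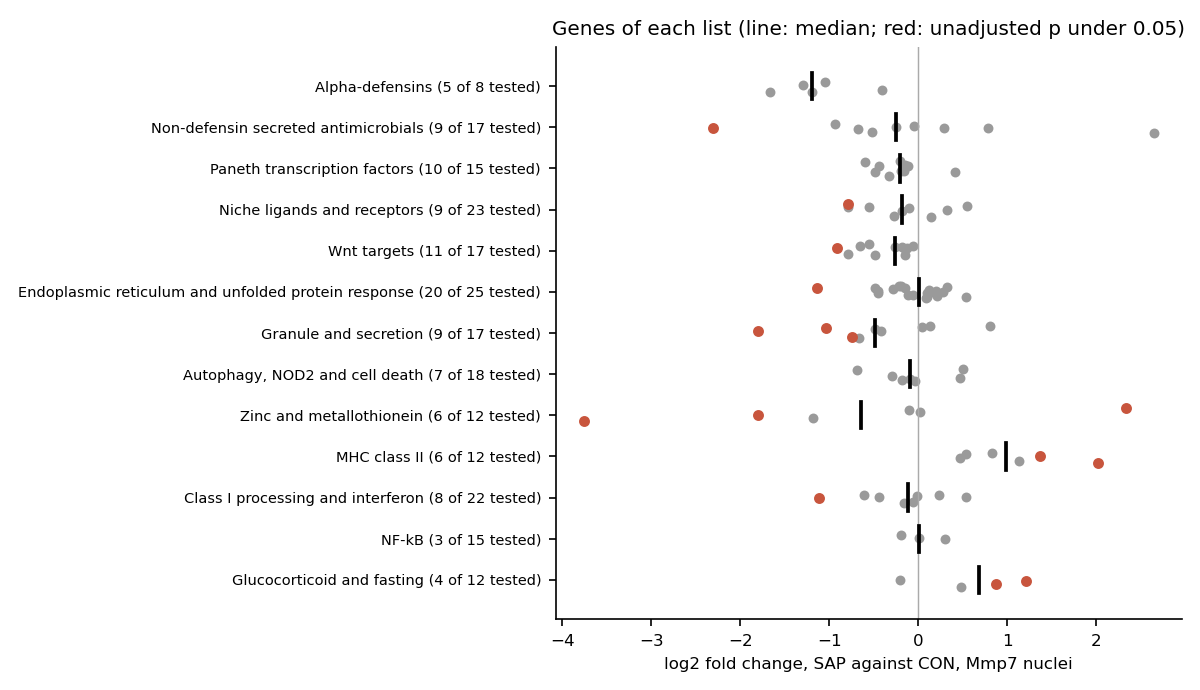
Log2 fold change in SAP against CON (horizontal axis) of each tested gene (points) in the 13 gene lists (vertical axis, with the number tested), where red marks an unadjusted p under 0.05 and the bar marks the list's median. Medians ran from -1.19 for alpha-defensins to 0.98 for MHC class II, beside 0.01 over all 3611 genes.

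Several further genes were singled out after their values were seen, because the blocked fit called them. Creb3l3, a membrane-bound transcription factor of lipid metabolism, was at 13.2, 0 and 9.28 TMM CPM in CON and 220, 144 and 74.6 TMM CPM in SAP (3.67 ± 0.54, adjusted p = 0.0525; 0.000415 with the block). Cldn4, a tight junction claudin, was at 56.5, 31.1 and 46.4 TMM CPM in CON and 321, 189 and 205 TMM CPM in SAP (2.29 ± 0.35, adjusted p = 0.0630; 0.00218 with the block). The unnamed gene LOC120095958 was at 1.62, 0 and 18.6 TMM CPM in CON and 89.8, 151 and 87.0 TMM CPM in SAP. Scd2, a fatty acid desaturase, was at 153, 135 and 102 TMM CPM in CON and 9.45, 7.55 and 43.5 TMM CPM in SAP (-2.93 ± 0.53; adjusted p with the block 0.0133). Cd9, a tetraspanin, was at 124, 280 and 316 TMM CPM in CON and 54.4, 22.7 and 49.7 TMM CPM in SAP (-2.30 ± 0.47; adjusted p with the block 0.0294). None of these 5 genes overlapped between groups, and 11% of all genes tested did not overlap either. The 5 were chosen by a fit of the same values, so this is no separate evidence. The fit over all passing nuclei, which include the Mmp7 nuclei, gave all 5 a fold of the same sign, from -2.74 for Scd2 to 3.52 for LOC120095958.

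Whether the response differed between the Mmp7 nuclei and other nuclei was tested by an interaction term in a fit over both kinds, with the library as a block. Against crypt-base nuclei no gene of 9454 was called by edgeR's quasi-likelihood test (0%), and 277 had an unadjusted p under 0.05. Against nuclei of the goblet rule, 5 genes of 17116 were called (0.0292%), 4 with a lower (0.0234%) and 1 with a higher (0.00584%) SAP effect in Mmp7 nuclei. Mt1 was at 193, 492 and 423 CPM in Mmp7 nuclei of CON and 47.3, 6.94 and 13.3 CPM in those of SAP, with the CPM scaled in the fit of both kinds, while nuclei of the goblet rule were at 39.6, 25.5 and 21.0 CPM and 54.7, 36.2 and 23.7 CPM. The SAP effect on Mt1 was thus lower in Mmp7 nuclei by 4.10 ± 0.40 on the log2 scale (adjusted p = 6.71e-20). Mt2A followed with a difference of -3.25 ± 0.42 (adjusted p = 5.79e-11), from 64.1, 136 and 197 CPM in CON and 90.4, 6.94 and 35.5 CPM in SAP, against 9.95, 4.06 and 25.4 CPM and 63.5, 35.7 and 44.1 CPM. For both metallothioneins the SAP mean lay under the CON mean in Mmp7 nuclei and above it in nuclei of the goblet rule. Slc39a10 differed by -1.56 ± 0.31 (adjusted p = 0.00185), from 1273, 1018 and 1232 CPM in CON and 344, 118 and 275 CPM in SAP, against 196, 60.8 and 51.6 CPM and 122, 21.6 and 39.5 CPM.

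The other 2 genes lay outside zinc handling. Lef1, a transcription factor of the Wnt pathway, was at 69.0, 297 and 211 CPM in Mmp7 nuclei of CON and 43.0, 27.8 and 107 CPM in those of SAP, against 22.3, 16.2 and 25.7 CPM and 40.6, 6.74 and 94.2 CPM, a difference of -2.43 ± 0.40 (adjusted p = 7.50e-06). Lef1 is also expressed by lymphocytes, whose T cell markers summed to 512, 376 and 646 CPM in the Mmp7 nuclei of SAP and 445, 494 and 350 CPM in those of CON, and their part in this value was not tested. Chgb, the granule protein of enteroendocrine cells, was at 41.9, 25.4 and 0 CPM in Mmp7 nuclei of CON and 99.0, 20.8 and 79.9 CPM in those of SAP, against 80.0, 27.5 and 25.4 CPM and 58.5, 23.1 and 17.5 CPM (2.08 ± 0.46, adjusted p = 0.0253). The 8 enteroendocrine markers summed to 53.3, 40.3 and 19.4 CPM in CON and 161, 49.7 and 152 CPM in SAP, with 6 of 8 at 0 in CON 2 and CON 3.

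**Figure D5:**
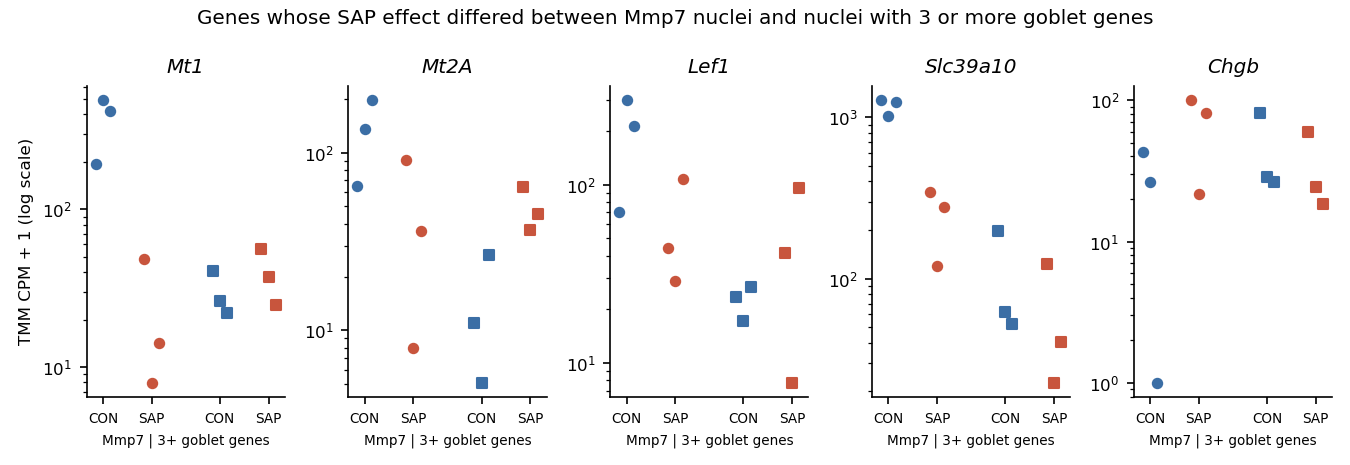
TMM CPM + 1 (vertical axes, log scale) of the 5 genes whose SAP effect differed, in Mmp7 nuclei (circles) and nuclei with 3 or more goblet genes (squares) of the 3 CON and 3 SAP rats. Mt1, Mt2A, Slc39a10 and Lef1 had a lower and Chgb a higher SAP effect in Mmp7 nuclei.

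A list of 11 genes taken from those the study's text names was tested whole, with 5 above 0 and a median of -0.00. The study names them in both directions, so this median shows no direction. Of those it names as lower, Defa24 had a log2 fold change of -1.19, Pla2g2a -2.30, Dmbt1 -0.68, Hmga2 -0.39 and Myb -0.60. Of those it names as higher, Apoa1 had 2.37, Cd74 1.14, Ly6al 0.59, Itga3 0.42, Itgb1 0.16 and Fn1 -0.005. The study reports the fall of Hmga2 and Myb mainly for stem cells. It reports the rise of Fn1, Itga3 and Itgb1 for stem and epithelial compartments, with a weaker FN1 output from Paneth cells in SAP. The folds given here are of the Mmp7 nuclei alone, so they do not test those statements. None of the 11 was called. The study chose them on these samples, so they are not independent evidence of a direction. Relative to all genes the median was -0.01, and -0.16 with library totals.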

How the data were processed

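Single-nucleus RNA was sequenced from ileum of 3 CON and 3 SAP rats, 1 library per rat, so each rat is 1 replicate, and the labels place all 6 libraries in 1 batch. The counts are UMI counts per gene and nucleus as deposited by the authors, not normalized, made with dnbc4tools per the study's methods, and the submitters' processing notes name the rat build mRatBN7.2 and Seurat 4.3.0. Nuclei with at least 1200 UMIs, at least 500 genes and at most 5% mitochondrial UMIs were kept, no doublet caller was run, and barcode names were running labels that cannot be compared between libraries.

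The members, gene lists and tests were chosen with earlier results of these data known. UMIs were summed per library and tested in edgeR 4.0.16 (R 4.3.3; filterByExpr, TMM, robust quasi-likelihood test, Benjamini-Hochberg adjustment), with limma 3.58.1 for logit shares (offset 0.5) and DESeq2 1.42.0 as an alternative. Genes were named if they were called, if they were on a list and had an unadjusted p under 0.05 or a level among the 4 highest of the list, or, between kinds, if they were among the 10 largest folds per direction with at least 100 CPM and 1 sign in all 6 libraries. From these the text names a part. Same-numbered CON and SAP samples correlated in their deviations from the group means (r from 0.132 to 0.195 in Mmp7 nuclei, against -0.119 to -0.0158 for different numbers), so results with the number as a block are given beside those without it, which stay the main ones. The pairing comes from these data and not from the labels. The fits were tested on simulated data. There the fit of SAP against CON missed most genes with a log2 fold of 1 or 2. The same held for the difference of the SAP effect from nuclei of the goblet rule. Intervals cover counting error only.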

Additional observations from a re-analysis of the deposited data

Results flagged for a closer look

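The SAP effect on 5 genes differed between Mmp7 nuclei and nuclei with 3 or more goblet genes in a test of the interaction itself (edgeR's quasi-likelihood test, 6 libraries of each kind). The difference was -4.10 for Mt1, -3.25 for Mt2A, -2.43 for Lef1, -1.56 for Slc39a10 and 2.08 for Chgb on the log2 scale, with adjusted p from 6.71e-20 to 0.0253. Mt1 rested on 22, 1 and 3 UMIs in the Mmp7 nuclei of SAP 1, 2 and 3. Mt2A in Mmp7 nuclei was higher in SAP 1 than in CON 1 (90.4 against 64.1 CPM). The call for Slc39a10 was lost with DESeq2 size factors, with at least 3 Mmp7 UMIs and without CON 2, CON 3 or SAP 1. The call for Chgb was lost with at least 3 Mmp7 UMIs, without CON 1, CON 3, SAP 1 or SAP 3, and without CON 1 and SAP 1 together.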

How the results depend on the processing

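The difference in the share of Mmp7 nuclei was not past the threshold under any setting, with values from -4.28 percentage points without SAP 1 to 2.55 without CON 1. Without SAP 2 or SAP 3 it was -0.230 and -0.227 percentage points, where the logit difference turned positive. The replicate block did not change this call.

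The count of 1 gene for SAP against CON was the least stable. It became 33 with the replicate block, 24 with DESeq2, 3 with DESeq2 size factors in edgeR, 32 with library totals alone and 72 with every gene of at least 1 count. It became 0 with the table kind as a covariate, a minimum count of 20, no exclusion genes, at most 1% mitochondrial UMIs, and without CON 1 and SAP 1. Leaving out 1 rat gave 0 to 6, and 6 without SAP 3. Over 24 named genes, 367 values kept their side of the threshold, 50 moved past it, 8 fell short and 0 changed sign.

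Against crypt-base nuclei 506 calls became 277 with DESeq2 and 261 without CON 1 and SAP 1, and 274 (without SAP 1) to 571 when 1 rat was left out, with 335 without CON 3. Against nuclei of the goblet rule 1014 became 511 with DESeq2 and 196 after thinning to 1200 UMIs, and leaving out 1 rat gave 686 to 951. Against Olfm4 nuclei 755 became 198 without CON 1 and SAP 1, and 324 (without CON 1) to 750 when 1 rat was left out. Apoa4 turned from -1.23 to 0.15 against nuclei with 6 or more goblet genes. Differences of the SAP effect numbered 0 to 1 against crypt-base nuclei (1 without SAP 1). Against the goblet rule they numbered 3 with at least 3 Mmp7 UMIs and 4 to 13 when 1 rat was left out, with 13 without CON 1. The causes were not tested.

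The Mmp7 nuclei of 4 libraries number 29 to 51, and the values within them rest on these few nuclei.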
